A study of Mus musculus with 8 samples.

Results

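The genes described here are 10 members of the BCL2 family, which set whether a cell survives or dies through its mitochondria. They were taken from the table of raw counts by their Entrez Gene IDs, and all 10 were found among its 24594 genes. The pro-survival members are Bcl2, Bcl2l1 and Mcl1, the effectors are Bax and Bak1, and the BH3-only members are Bcl2l11, Bid, Bad, Bbc3 and Pmaip1. RNA came from 4 libraries of luminal progenitors (LP) and 4 of mature luminal cells, which the labels call luminal differentiated, all from mammary glands of untreated wild type C57BL/6J mice. The series' design text calls the glands virgin. Ages of these mice are not in the labels, and the study's methods give 12 to 20 weeks for its mice in general. Luminal cells were gated on EpCAM and CD49f after blood and endothelial cells and dead cells had been removed, and were divided by c-Kit, with high levels taken as LP and low levels as mature cells. The labels also name CD14 as a sorting marker, so levels of Kit and Cd14 follow from the sort. The glands were digested with enzymes before sorting, and a small amount of RNA was amplified before library preparation. For RNA sequencing as a whole, 3 biological replicates of each condition are named in the study's methods, whereas 4 libraries per fraction were analysed here. The labels do not say which libraries came from separate animals, so p-values measure the spread between these libraries.

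Proteins of this family meet at the outer membrane of the mitochondria. BAX and BAK form pores there that release cytochrome c, which leads to caspase activation. BCL2, BCL-XL (from Bcl2l1) and MCL1 hold the effectors and the BH3-only proteins in check, while BH3-only proteins bind the pro-survival proteins, and some of them activate the effectors directly. In the mammary gland the family is known for its part in the removal of milk-producing cells at involution. The abundance and activity of these proteins are also set after transcription, which RNA counts do not measure.

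Members with the clearest difference between the fractions included Bcl2, Bcl2l1 and Bax, and the 250 bases upstream of an annotated RefSeq start of each (GRCm38.p6, the same build as mm10) are shown to set the compared genes side by side. Bcl2 is read from chr1:106714291-106714540, Bcl2l1 from chr2:152831729-152831978 (the farthest upstream of 3 windows in the table used) and Bax from chr7:45466899-45467148. All 3 lie on the minus strand, each directly upstream of the start of 1 annotated transcript, and are written 5′ to 3′. Since other transcripts start farther upstream, the Bcl2l1 window lies inside the annotated gene, and the Bax window overlaps the gene's first bases. Capitals mark matches, on either strand, to the GC box GGGCGG, the E-box CACGTG, the core of the cAMP response element TGACGT, the combined C/EBP and ATF element TGATGNAA, the TATA box TATAAA and the ETS site CCGGAAG.
Bcl2: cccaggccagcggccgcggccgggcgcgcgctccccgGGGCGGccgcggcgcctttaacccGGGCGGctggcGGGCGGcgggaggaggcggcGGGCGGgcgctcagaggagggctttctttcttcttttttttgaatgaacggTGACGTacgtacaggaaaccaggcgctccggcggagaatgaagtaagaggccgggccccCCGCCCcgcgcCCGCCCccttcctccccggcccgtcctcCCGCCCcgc
Bcl2l1: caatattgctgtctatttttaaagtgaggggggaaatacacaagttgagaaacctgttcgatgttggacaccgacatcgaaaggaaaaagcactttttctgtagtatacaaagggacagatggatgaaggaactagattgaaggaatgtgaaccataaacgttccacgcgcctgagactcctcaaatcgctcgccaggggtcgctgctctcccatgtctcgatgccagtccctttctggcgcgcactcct
Bax: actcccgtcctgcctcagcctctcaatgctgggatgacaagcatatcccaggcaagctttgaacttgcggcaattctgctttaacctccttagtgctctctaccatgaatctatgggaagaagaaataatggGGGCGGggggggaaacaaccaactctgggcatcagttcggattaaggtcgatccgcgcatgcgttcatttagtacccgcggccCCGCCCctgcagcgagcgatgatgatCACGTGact
The Bcl2 window held 7 matches to GGGCGG and 1 to TGACGT, and the Bax window held 2 matches to GGGCGG and 1 to CACGTG. None of the 6 motifs was found in the Bcl2l1 window. Over all 32851 promoter windows of this length, 32.7% held GGGCGG, 6.47% TGACGT, 6.02% CACGTG, 12.4% TATAAA, 6.91% CCGGAAG and 3.45% TGATGNAA. These matches describe letters only and were not tested for binding.

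Library totals ran from 4410049 to 7791593 counts. The marker sums of each fraction separated the fractions, and neither marker list was at 0 in the other fraction. Levels are given in CPM, counts scaled with the TMM method. The sum of Kit, Elf5, Cd14 and Aldh1a3 ran from 13574 to 20040 in LP and from 244 to 966 in mature libraries. Most of it in LP was Cd14, at 12142 to 18322 CPM, whose level follows from the sort. The sum of Pgr, Areg, Esr1, Prlr and Cited1 ran from 306 to 985 in LP and from 4325 to 6059 in mature libraries. Ranges overlapped for Areg (up to 3.16 CPM in LP, down to 3.01 in mature libraries) and Esr1 (up to 117 and down to 109 CPM). Of these markers, 3 of 4 progenitor genes were higher in LP and 5 of 5 mature luminal genes were higher in mature libraries (edgeR's quasi-likelihood test, adjusted p under 0.05 over all genes), the exception being Aldh1a3 with adjusted p = 0.0512. None of the 4 tested basal markers passed that test (3 had an unadjusted p under 0.05, DESeq2 called 2 and the likelihood ratio test 1). Of those 3, Acta2 and Krt14 were higher in mature cells (log2 fold changes of -2.47 and -1.88) and Oxtr in LP (3.12). Ranges were apart only for Acta2. The basal list summed to 17.5 to 48.8 CPM in LP, most of it Krt17, and 13.1 to 78.5 CPM in mature libraries. For other cell types, 0 of 1 tested leukocyte marker, 0 of 2 endothelial and 0 of 3 fibroblast markers passed the quasi-likelihood test of edgeR (0, 0 and 1 with an unadjusted p under 0.05, 0 each by DESeq2, and 0, 0 and 1 by the likelihood ratio test). The leukocyte list summed to 34.4 to 53.7 CPM in LP and 8.08 to 42.3 CPM in mature libraries, nearly all of it Cd68, while Cd3e was at 0 in all 8 libraries. The endothelial list summed to 3.88 to 9.92 CPM in LP and 2.25 to 10.5 CPM in mature libraries, mostly Pecam1, with Kdr at 0 throughout. The fibroblast list summed to 7.35 to 39.1 CPM in LP and 21.7 to 174 CPM in mature libraries, and its gene Dcn had 132 and 154 CPM in mature replicates 1 and 2 against 1.53 to 24.7 CPM in LP and 14.1 and 20.6 CPM in mature replicates 3 and 4. The part of these cells in the differences between fractions was not tested. Mature replicate 3 stood apart, with the highest progenitor marker sum of the mature libraries (966 CPM) and the highest basal marker sum of all 8.

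All 10 members passed the filter on low counts and were tested. In the 12816 genes tested, 3161 or 24.7% were called at an adjusted p under 0.05, 10.9% with LP above and 13.8% with mature cells above. Of the members 4 were called, with Bcl2 higher in LP and Bcl2l1, Bax and Pmaip1 higher in mature libraries. The ranges of the fractions did not overlap in 29.5% of all tested genes, with LP above in 14% and mature above in 15.5%, and in 5 members, with LP above for Bcl2 and Bad and mature above for Bcl2l1, Bax and Pmaip1. The median log2 fold change of LP over mature was -0.41 over the 10 members and 0.00 over all tested genes. In sorted bulk cells, fewer cells that express a gene and less RNA per cell cannot be told apart.

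**Figure D1:**
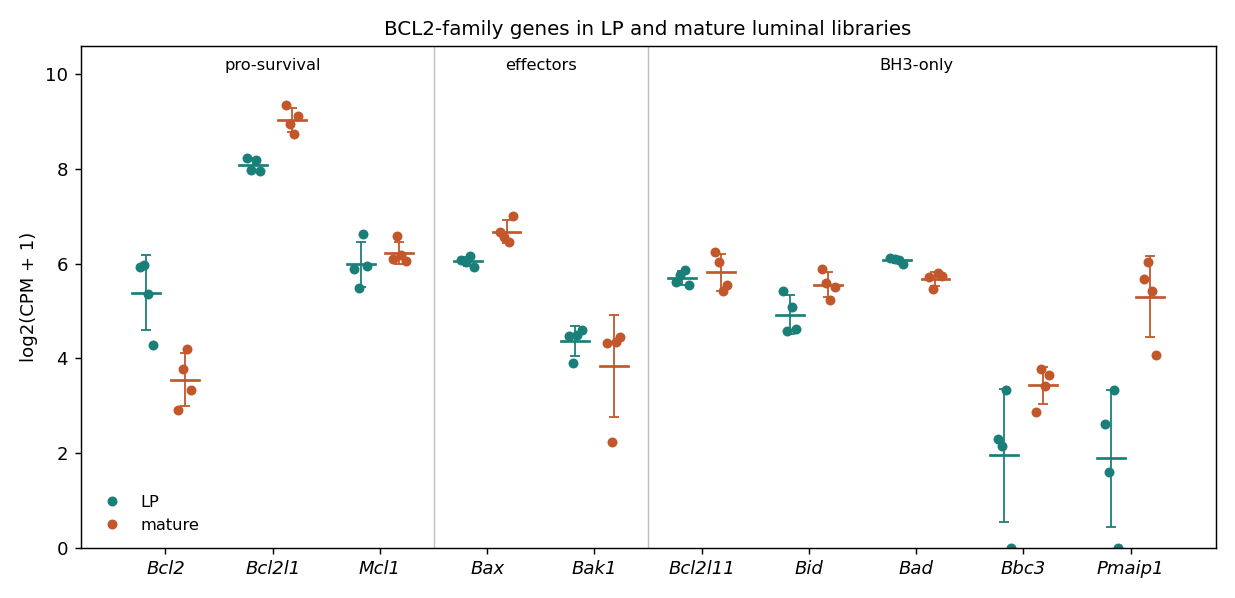
Expression of the 10 members as log2(CPM + 1) in 4 LP and 4 mature libraries, with 1 point per library, the mean as a horizontal line and 1 SD as a bar. Every LP library lies above every mature library for Bcl2 and Bad, and every mature library lies above every LP library for Bcl2l1, Bax and Pmaip1.

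Bcl2 and Bcl2l1, a pair of pro-survival genes, differed in opposite directions. Bcl2 had 60.3, 61.5, 40.0 and 18.3 CPM in LP replicates 1 to 4 and 6.47, 12.6, 17.5 and 9.04 CPM in mature replicates 1 to 4. The lowest LP library, replicate 4, lay just above the highest mature library, replicate 3. The means were 45.0 ± 20.4 CPM in LP and 11.4 ± 4.77 CPM in mature cells (SD, n = 4 each), and the fitted difference was 3.95-fold, 1.98 on the log2 scale (standard error, SE, 0.42, edgeR adjusted p = 0.0071). The exact two-sided permutation test over the 8 libraries, taken as unpaired, gave p = 0.0286, the smallest that 4 against 4 allow. Every gene whose ranges do not overlap gets this p, among them Bad, which was not called. It therefore restates the separation of the ranges. When both libraries numbered 1 were left out, the edgeR adjusted p was 0.0526, and without those numbered 2 it was 0.0529, while the log2 fold change was 1.61 and 1.86.

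The mature luminal marker sum in LP replicates 1 to 4 was 985, 518, 390 and 306 CPM, lowest in the same library as Bcl2. In mature replicates 1 to 4 the progenitor marker sum was 244, 355, 966 and 715 CPM, highest in the same library as Bcl2. Their part in the difference was not tested. Without mature replicate 3 the log2 fold change of Bcl2 was 2.31. Exons of Bcl2 share 558 bases with the antisense gene D630008O14Rik, and the library kit does not mark strand.

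Bcl2l1 encodes BCL-XL and was the most abundant of the members. Its level was 299, 251, 291 and 247 CPM in LP and 648, 494, 429 and 553 CPM in mature libraries, so all mature libraries were above all LP libraries. The means were 272 ± 26.7 CPM and 531 ± 93.0 CPM (SD, n = 4 each). The log2 fold change of LP over mature was -0.96 (SE 0.17, edgeR adjusted p = 0.0029), 1.95-fold higher in mature cells. Among the 4 called members it was the only one whose call held in all 20 alternatives, in which the log2 fold change ran from -1.09 to -0.84.

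Mcl1, whose short-lived protein also restrains BAK, had 58.2, 43.7, 97.3 and 61.2 CPM in LP and 67.8, 94.6, 71.6 and 65.7 CPM in mature libraries. LP replicate 3 was the highest of the 8 and the ranges overlapped. On the log2 scale LP over mature gave -0.20 (SE 0.24, edgeR adjusted p = 0.588), and without both libraries numbered 2 it was 0.10.

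Per length of exon, where genes can be compared with each other, Bcl2l1 led the pro-survival members in every library. It made up 73.4%, 73.7%, 65.9% and 73.0% of the summed CPM per kilobase of Bcl2, Bcl2l1 and Mcl1 in LP, and 87.3%, 78.8%, 80.4% and 85.7% in mature libraries. Bcl2 made up 7.41%, 9.05%, 4.54% and 2.71% in LP and 0.436%, 1.01%, 1.64% and 0.701% in mature libraries. The shares of Bcl2l1 and of Bcl2 did not overlap between the fractions, and those of Mcl1 did, at 22.5% ± 5.53 in LP and 16.0% ± 3.72 in mature cells (SD, n = 4 each). The level of Bcl2 per kilobase was 0.0824 ± 0.0374 of that of Bcl2l1 in LP and 0.0116 ± 0.00667 in mature cells (SD, n = 4 each). These shares are descriptions with no test, since the members were chosen with earlier results known. They depend on the length used: by the longest annotated transcript, the mean share of Bcl2l1 was 80.9% in LP and 89.6% in mature cells.

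**Figure D2:**
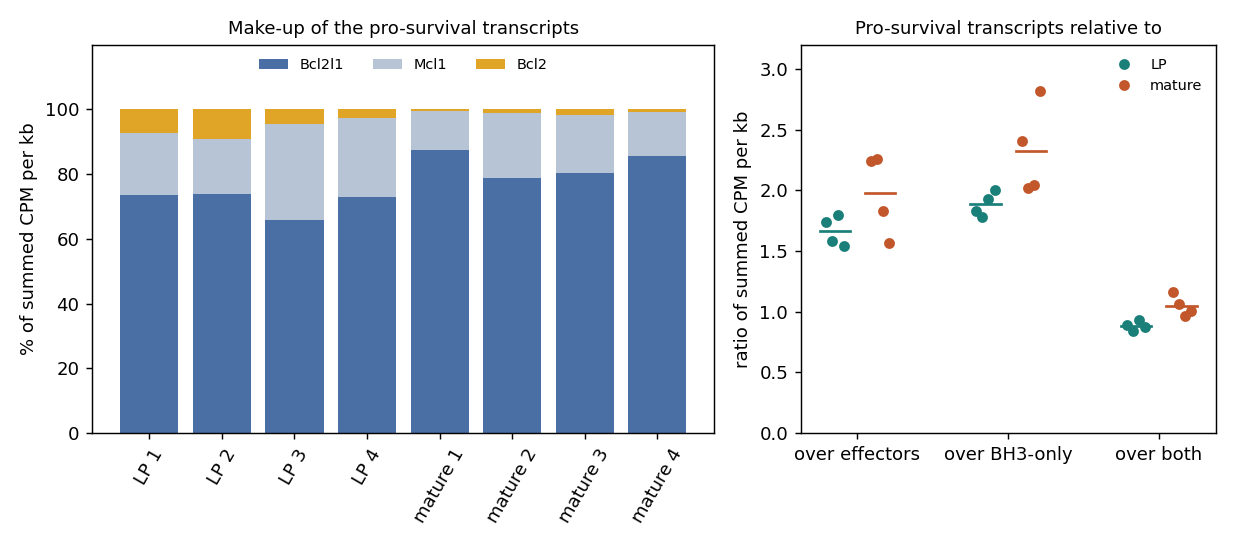
Left, share of Bcl2l1, Mcl1 and Bcl2 in their summed CPM per kilobase of exon in each library, in percent. Right, ratio of the summed CPM per kilobase of the pro-survival members to that of the effectors, the BH3-only members and both, with 1 point per library and the mean as a line. Bcl2l1 takes 65.9% to 73.7% in LP and 78.8% to 87.3% in mature libraries.

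Of the effectors, Bax differed and Bak1 was not called. Bax had 66.5, 64.8, 70.4 and 60.2 CPM in LP and 101, 93.0, 87.5 and 128 CPM in mature libraries. The LP libraries were close to each other and all below the mature libraries, of which replicate 4 was the highest. The means were 65.5 ± 4.22 and 102 ± 18.0 CPM (SD, n = 4 each) and the log2 fold change was -0.65 (SE 0.16, edgeR adjusted p = 0.0151), 1.57-fold higher in mature cells. The edgeR adjusted p was 0.0757, 0.0671 and 0.0905 without both libraries numbered 1, 2 and 4, with log2 fold changes of -0.66, -0.67 and -0.47. Exons of Bax share 192 bases with the gene model Gm45808 on the same strand.

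Bak1 had 21.2, 13.9, 21.4 and 23.2 CPM in LP and 19.0, 3.68, 19.3 and 20.8 CPM in mature libraries. Mature replicate 2, the library with the fewest counts, stood far below the others with 14 counts of Bak1. LP over mature gave 0.33 on the log2 scale (SE 0.45, edgeR adjusted p = 0.631), and it was 0.03 without that library. Exons of Bak1 are shared in part with Ggnbp1 on the opposite strand.

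The BH3-only members ranged from Pmaip1, with the largest change of the 10, to Bcl2l11 with the smallest. Pmaip1 encodes NOXA, which binds MCL1, and had 5.08, 2.01, 9.13 and 0 CPM in LP and 50.2, 64.4, 42.2 and 15.8 CPM in mature libraries. LP replicate 4 had no count, where 3 counts would be 0.416 CPM, and mature replicate 4 was the lowest mature library. The groups did not overlap. The means were 4.06 ± 3.98 and 43.1 ± 20.4 CPM (SD, n = 4 each), and the log2 fold change was -3.42 (SE 0.83, edgeR adjusted p = 0.0133), 10.7-fold higher in mature cells. When both libraries numbered 1 were left out, the edgeR adjusted p was 0.0642, and without those numbered 2 it was 0.0984, with log2 fold changes of -3.47 and -2.91. With at least 10 counts required in every library Pmaip1 was not tested.

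Bbc3 encodes PUMA, which binds all of the pro-survival proteins described here. It had 3.92, 3.45, 9.13 and 0 CPM in LP and 6.33, 12.6, 9.67 and 11.6 CPM in mature libraries. LP replicate 3 reached into the mature range, and LP replicate 4 again had no count. The difference was -1.29 on the log2 scale (SE 0.86, edgeR adjusted p = 0.309), with at most 77 counts of this gene in any library. Without LP replicate 3 it was -2.02 (edgeR adjusted p = 0.166) and without LP replicate 4 it was -0.87 (edgeR adjusted p = 0.275). Over the 19 alternatives in which Bbc3 was tested, it ran from -2.04 to -0.78 and was called in none, with edgeR or DESeq2 adjusted p between 0.166 and 0.578.

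Bad, which is held inactive by phosphorylation, was the member whose ranges were apart without a call. It had 69.0, 67.3, 66.2 and 62.7 CPM in LP and 52.0, 43.3, 54.6 and 52.4 CPM in mature libraries. All LP libraries were above all mature libraries, by 0.39 on the log2 scale (SE 0.15, edgeR adjusted p = 0.0855). The adjusted p lay between 0.0654 and 0.258 over the 20 alternatives. Exons of Bad share 524 bases with Gpr137 on the opposite strand.

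Bid, which is cut by caspase-8 and so joins death receptors to mitochondria, had 42.0, 22.9, 33.0 and 23.4 CPM in LP and 57.9, 47.3, 36.8 and 44.6 CPM in mature libraries. LP replicate 1 was above mature replicate 3, and the ranges overlapped. The log2 fold change was -0.62 (SE 0.25, edgeR adjusted p = 0.0926), and without LP replicate 1 it was -0.82 with an adjusted p of 0.0490. Exons of Bid share 628 bases with Bcl2l13 on the opposite strand.

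Bcl2l11 encodes BIM, an activator of the effectors. Its level was 48.2, 53.5, 57.1 and 45.8 CPM in LP and 74.7, 64.9, 41.9 and 45.8 CPM in mature libraries, and mature replicates 1 and 2 were above all LP libraries whereas replicate 3 was below them. The log2 fold change was -0.15 (SE 0.21, edgeR adjusted p = 0.648). It was 0.03 without mature replicate 1.

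**Figure D3:**
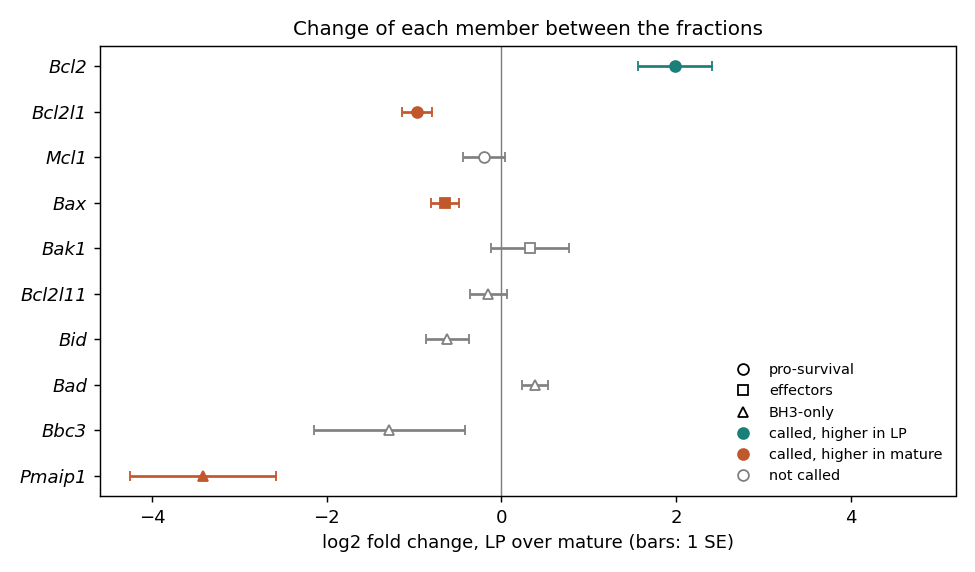
Log2 fold change of LP over mature for each member, with bars of 1 standard error. Filled symbols passed an adjusted p of 0.05 in edgeR's quasi-likelihood test and open symbols did not. Bcl2 lies at 1.98 and Pmaip1 at -3.42.

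Ordered by mean level per kilobase of exon, Bcl2l1 was first and Bax second in both fractions, and in each fraction all libraries of Bcl2l1 were above all libraries of Bax. In LP the values were 59.4 ± 5.83 CPM per kilobase for Bcl2l1 and 41.6 ± 2.68 for Bax, and in mature cells 116 ± 20.3 and 65.0 ± 11.4 (SD, n = 4 each). Bad (25.9 CPM per kilobase) and Mcl1 (19.0) followed in LP, and Mcl1 (21.9) and Bad (19.8) in mature cells, with overlapping ranges in both fractions by this length. The order of this pair in mature cells depends on the length used: by the longest annotated transcript, Bad (33.0 CPM per kilobase) was above Mcl1 (21.9). At the low end, Bcl2 was eighth in LP, at 4.92 ± 2.22 CPM per kilobase, and last in mature cells, at 1.24 ± 0.521. Pmaip1 was last in LP, at 1.48 ± 1.46 CPM per kilobase, and the fifth in mature cells, at 15.8 ± 7.46 (SD, n = 4 each). In LP, Bid, Bak1, Bcl2l11, Bcl2, Bbc3 and Pmaip1 followed in this order, and each range overlapped that of the next. The same held in mature cells for Mcl1, Bad, Pmaip1 and Bid, and for Bcl2l11, Bak1 and Bbc3. By the longest annotated transcript, Bid (19.3 CPM per kilobase) was above Pmaip1 (15.8) in mature cells. In LP, Bcl2l11 (10.2) was then above Bak1 (8.35). The overlaps of ranges in this paragraph are given for the exon union only.

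The summed pro-survival level was 0.893, 0.837, 0.931 and 0.872 of the summed effector and BH3-only level in LP, and 1.16, 1.07, 0.967 and 1.01 in mature libraries. All mature libraries were above all LP libraries, although LP replicate 3 and mature replicate 3 were close. Each of the 3 sums was itself higher in every mature library, with pro-survival means of 83.3 ± 11.1 and 139 ± 18.6 CPM per kilobase, effector means of 49.8 ± 3.04 and 71.5 ± 13.2, and BH3-only means of 44.3 ± 6.11 and 60.5 ± 8.62 in LP and mature cells (SD, n = 4 each). The BH3-only sums were nearly tied at the edge, with 49.95 CPM per kilobase in LP replicate 3 and 50.02 in mature replicate 4. In CPM not divided by length they overlapped, reaching 175 in LP and falling to 170 in mature libraries. The ratio to the effectors alone overlapped between the fractions. By the longest annotated transcript the mean ratio to both was 0.952 in LP and 1.24 in mature cells, and no test was made on it.

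Genes were sought whose log2 CPM over the 8 libraries was most like that of the 3 called members with the largest change. For Pmaip1 these were Tmem86a, Dtx4 and Snhg17 (Pearson's r of 0.980, 0.977 and 0.977). For Bcl2 they were Zfp27, Rab30 and Cgnl1 (r of 0.962, 0.958 and 0.956). For Bcl2l1 they were Tgm2, Lasp1 and Hdac11 (r of 0.986, 0.980 and 0.979). The fraction itself contributes to these values, and they are a description over 8 libraries.

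Around the members, 64 further genes of the cell-death machinery were read from the same fit. Of the 56 that were tested 13 were called, 7 of them with LP above and 6 with mature above, a share of 23.2% beside the 24.7% of all tested genes. Their median log2 fold change was 0.06, against 0.00 over all tested genes. Among 10 tested other BCL2-family genes, 1 was called with LP above and 3 with mature above. Bnip3, which acts in the removal of mitochondria, had 129 to 181 CPM in LP and 476 to 1791 CPM in mature libraries, which gave a log2 fold change of -2.83 (SE 0.43, edgeR adjusted p = 0.0013). Its relative Bnip3l had a log2 fold change of -1.39 (edgeR adjusted p = 0.0068), and both genes are in the mature gene set that the study drew from these libraries. Bcl2l14 had a log2 fold change of -1.46 (edgeR adjusted p = 0.0015). Bcl2a1d, a pro-survival relative, had 4.31 to 8.19 CPM in LP and 0.151 to 2.02 CPM in mature libraries, but its near-identical copies make the assignment of its reads uncertain.

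Downstream of the mitochondria, 4 of 17 genes were called higher in LP and 0 in mature cells. The called share of 23.5% was close to that of all tested genes, at 24.7%, with LP above in 10.9% and mature above in 13.8%. Aifm1, which encodes a mitochondrial flavoprotein, had a log2 fold change of 1.03 (edgeR adjusted p = 0.0332), and Diablo was at 0.83 (edgeR adjusted p = 0.0225). Diablo, which blocks caspase inhibitors, was named after its values were seen. Dffb, the DNase that caspases release, had 119 counts over the LP libraries and 1 over the mature libraries. The ratio of these pooled counts was 108, with an exact 95% interval of 18.9 to 4285 that covers counting error only. The edgeR fit, which uses the spread between libraries, gave a log2 fold change of 6.21 (SE 0.89, edgeR adjusted p = 0.0010), or 73.8-fold. In this list 5 genes had an unadjusted p under 0.05, and DESeq2 and the likelihood ratio test each called 4.

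Of the outer membrane channels, Vdac1 was higher in mature cells with a log2 fold change of -1.27 (edgeR adjusted p = 0.0017, also in the study's mature gene set) and Vdac3 higher in LP at 0.56 (edgeR adjusted p = 0.0217). None of the 8 tested genes of the death receptor complex was called by edgeR's quasi-likelihood test, 1 had an unadjusted p under 0.05, and DESeq2 and the likelihood ratio test each called 1. Among 13 kinases, 14-3-3 proteins and ubiquitin enzymes, 1 was called: Fbxw7, the ubiquitin ligase subunit that targets MCL1, at 91.5 to 118 CPM in LP and 38.4 to 54.7 CPM in mature libraries (log2 fold change 1.24, edgeR adjusted p = 0.0009).

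Transcription factors known to induce BH3-only genes were called in 2 of 5 tested cases, or 40%, beside 24.7% of all tested genes. Ddit3, which encodes CHOP, had 30.5, 19.0, 29.4 and 23.4 CPM in LP and 413, 486, 120 and 125 CPM in mature libraries, and LP over mature gave -3.48 on the log2 scale (SE 0.48, edgeR adjusted p = 0.0009). Atf4, which acts upstream of Ddit3 in the stress response, had a log2 fold change of -2.49 (SE 0.29, edgeR adjusted p = 0.0004), and both are in the study's mature gene set too. Trp53 was at -0.04 (edgeR adjusted p = 0.923) and Foxo3 at -0.32 (edgeR adjusted p = 0.258), neither of them called, and both were named after their values were seen.

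**Figure D4:**
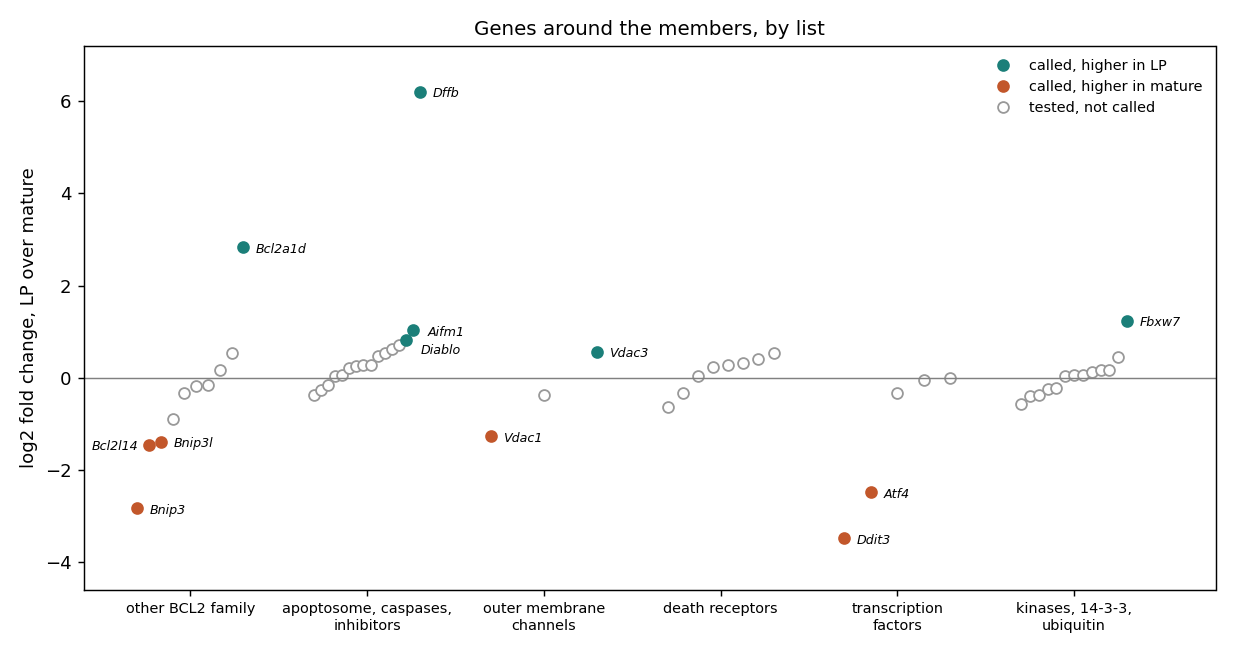
Log2 fold change of LP over mature for tested genes around the members, by list, with 1 point per gene shown. Filled points passed an adjusted p of 0.05 in edgeR's quasi-likelihood test. Vdac1 and Vdac3 lie on opposite sides of 0, and no gene of the death receptor list is filled.

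Genes known to respond to tissue dissociation also differed between the fractions. Of 12 tested, 75% were called, beside 24.7% of all tested genes (13.8% with mature above and 10.9% with LP above). Of the called genes, 8 were higher in mature cells (Fos, Jun, Atf3, Hspa1a, Hspa1b, Dnajb1, Ppp1r15a and Gadd45b) and 1, Ier2, in LP. The called genes were named in full after their values were seen. The study's gene sets, drawn from these libraries, hold all of these 9 genes, so the counts are not independent evidence. The list summed to 1616 to 2234 CPM in LP and to 4659 to 18548 CPM in mature libraries, the highest being mature replicate 3. These values stand beside the higher Pmaip1, Ddit3 and Atf4 in mature cells, and their part in those differences was not tested. Without mature replicate 3 the edgeR calls of Bcl2, Bcl2l1, Bax and Pmaip1 were kept. The list still summed to 5449, 4659 and 4822 CPM in mature replicates 1, 2 and 4, above every LP library. Its part in the calls was therefore not tested by leaving that library out.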

How the data were processed

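Sorted LP and mature luminal cells were sequenced as 4 libraries each. According to the study's methods, 51 bp single-end reads were trimmed with cutadapt and aligned to mm10 with Bowtie2. The submitters' processing notes name cutadapt 4.2 and Bowtie2 2.3.5.1, and the methods another version of Bowtie2. The authors deposited raw counts per gene by Entrez Gene ID. The counting program, its annotation and its use of strand are not given in the sources used here.

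Counts were scaled by TMM, filtered with filterByExpr by fraction and tested with the quasi-likelihood F-test of edgeR 4.0.16 (R 4.3.3), with p-values adjusted by Benjamini-Hochberg over the 12816 tested genes and a threshold of 0.05. CPM are these scaled counts with no added count. A standard error is the absolute log2 fold change over the square root of F. Exact permutation tests were made on log2(CPM + 0.5) in scipy. Levels per length used the exon union of GENCODE vM21 (alternatively the longest transcript). Symbols, positions and promoters came from RefSeq GRCm38.p6, with 24570 IDs matched. The promoter table used held no entry for Pmaip1. DESeq2 1.42.0 and other settings were alternatives. The test was checked on simulated data. Counting intervals and floors (3 counts) cover counting error only.

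The members and gene lists were chosen with earlier results of these data known. Named genes were all 10 members, the called genes of each further list (at most 3 per direction, by size of change), markers where a result turned on them, and the 3 genes most like each of the 3 called members with the largest change. Some listed genes are counted but not reported here by name.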

Additional observations from a re-analysis of the deposited data

Results flagged for a closer look

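Each group of 4 libraries was examined for a library far from the others, in 32 genes (the 10 members and the called genes of the further lists) or 64 groups, of which 8 exceeded Dixon's limit for 4 samples, where chance gives about 3.2. Among the members only Bak1 did, with 3.68 CPM in mature replicate 2 against 19.0 to 20.8 CPM in the other mature libraries. Bcl2l14 had 46.0 CPM in LP replicate 1 against 34.2 to 34.7 CPM in the other LP libraries. Dffb had 0.141 CPM, which is 1 count, in mature replicate 1 and 0 in the other mature libraries. The other 5 groups were heat shock genes of the dissociation list in the libraries numbered 3. In mature replicate 3 Hspa1a had 8253 CPM against 346 to 1309, Hspa1b 3779 CPM against 167 to 607 and Dnajb1 3244 CPM against 972 to 1212 in the other mature libraries. In LP replicate 3 Hspa1a had 288 CPM against 61.7 to 97.4 and Dnajb1 199 CPM against 89.2 to 100.4 in the other LP libraries.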

How the results depend on the processing

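In the fits with all 8 libraries (other scaling, DESeq2, the likelihood ratio test, no filter, a minimum of 10 counts per library, thinning, a block) the calls of Bcl2, Bcl2l1 and Bax were kept, as was that of Pmaip1 except where the minimum left it untested, and Bbc3 was untested there too. Leaving out 1 library or 1 same-numbered pair, the number of called members ran from 1 to 5, the called genes from 1615 to 3414 and the called further cell-death genes from 8 to 14. The log2 fold change ran from 1.61 to 2.33 for Bcl2, from -0.75 to -0.47 for Bax, from -4.19 to -2.91 for Pmaip1, from -0.82 to -0.48 for Bid, from -0.48 to 0.10 for Mcl1 and from -0.33 to 0.041 for Bcl2l11. Without pair 1 or pair 2 only Bcl2l1 remained called among the members, and without pair 4 Bax was lost. The cause was not tested, although these fits hold fewer libraries. By the longest transcript the share of Bcl2l1 moved to 80.9% in LP and 89.6% in mature cells and the pro-survival to pro-death ratio to 0.952 and 1.24, from 0.883 and 1.05.

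Same-numbered libraries had correlations of their deviations from the fraction means of 0.113, 0.0618, 0.148 and 0.0844, below 0.1 in 2 of the 4 pairs. Their mean was 0.102, and between LP and mature libraries of different numbers it was -0.0338. Deviations from a fraction mean cancel out within the fraction. The second mean is therefore nearly fixed by the first and adds no separate information. As a hint from the data that the numbers do join libraries, 7 of 8 libraries correlated best with their own number, each LP library shares the number that opens its label with 1 mature library, and heat shock genes stood apart in both libraries numbered 3. The labels do not say what the number marks and not every pair exceeded 0.1, so the fit without a block was kept. That limit of 0.1 is not a test of pairing. With the replicate block 3027 genes were called, and the 4 called members were the same genes. Pmaip1 and Bbc3 had at most 55 counts each in an LP library. After thinning to the smallest library their log2 fold changes were -3.43 and -1.24.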
